A study of Mus musculus with 8 samples.

Results

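The Hox genes of mouse dorsal root ganglia (DRG), the sensory ganglia beside the spinal cord, were measured by bulk RNA-seq at E18.5, shortly before birth. The 38 genes described here were taken by symbol from the 4 Hox clusters, HoxA on chromosome 6 (10 genes), HoxB on chromosome 11 (10 genes), HoxC on chromosome 15 (9 genes) and HoxD on chromosome 2 (9 genes), out of 55414 genes in the count files. The libraries formed 2 groups of 4. AD1 OE embryos were AdvillinCre/+;Rosa26Dach1/+, with Cre under the control of Advillin, a gene of postmitotic sensory neurons, and a Rosa26 allele from which Cre removes a stop cassette so that Dach1 is transcribed. Control embryos were Advillin+/+;Rosa26Dach1/+, with the same Rosa26 allele and no Cre. The mice were of mixed C57Bl/6J and CD1 background. Which axial levels were dissected for RNA was not stated. As a check of the genotypes, Dach1 had 95.9 ± 5.28 CPM (normalised read counts, scaled for library size) in AD1 OE (mean ± SD, n = 4), against 32.6 ± 1.64 CPM in the Control libraries (n = 4), without overlap.

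Hox genes encode homeodomain transcription factors that give cells their position along the head-to-tail axis. They lie in clusters in which genes at the 3′ end (low paralogue numbers) are switched on earliest and reach farthest toward the head, and genes at the 5′ end (high paralogue numbers) are switched on last and stay near the tail. In the trunk, paralogue groups 10 and 11 are best known for patterning lumbar and sacral levels, and groups 12 and 13 mark the tail, the distal limb and the genital region. Cells of the trunk largely keep the Hox profile of the level at which they formed, which is why Hox transcripts are used to read axial level.

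Library depth ranged from 22339059 to 44025625 counts, and the 38 Hox genes took between 0.0308% and 0.0374% of them (7164 to 15776 counts). All 10 sensory neuron markers and all 8 Schwann and satellite glia markers passed the filter on low counts. Control replicate 1 stood apart in markers of other tissues. The summed level of 15 spinal cord markers was 41.8 CPM there and 19.1 to 27.6 CPM in the other 7 libraries, and that of 6 sympathetic ganglion markers was 12.1 CPM there and 4.2 to 7.4 CPM elsewhere. Slc5a7 alone gave 13.2 to 16.5 CPM of each spinal cord sum, so the other markers differed more than the sum did. Control replicate 4 had the next highest spinal cord sum (27.6 CPM), with Olig1 at 3.78 CPM and Slc32a1 at 2.06 CPM. By their Xist and Y-linked transcripts, 3 of 4 AD1 OE libraries and 1 of 4 Control libraries were male.

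Promoter sequences of 3 HoxD genes are shown because the results turn on them: Hoxd1 was the member that differed between genotypes, and Hoxd10 and Hoxd11 were the most uneven of the tested HoxD genes over libraries. Each is the 250 bases before a RefSeq transcription start, 5′ to 3′, on the plus strand of GRCm38.p6. Where a gene had more than 1 start, the window with the most motif matches was taken. The motifs searched, on both strands, were TGACAG (Meis), TGATTNAT (Pbx-Hox), CCATAAA (Cdx) and TAATTA (homeodomain core), and matches are in capitals. Of 22 Hox genes with a promoter in the RefSeq table, 2 held the Meis letters and 2 the Pbx-Hox letters, against 15.9% and 2.82% of 32851 promoters of all genes. The Cdx letters (2.43% of all promoters) were in 1 Hox gene, Hoxd4, and the homeodomain core (4.84%) in 1, Hoxd11.
Hoxd1, chr2:74762730-74762979: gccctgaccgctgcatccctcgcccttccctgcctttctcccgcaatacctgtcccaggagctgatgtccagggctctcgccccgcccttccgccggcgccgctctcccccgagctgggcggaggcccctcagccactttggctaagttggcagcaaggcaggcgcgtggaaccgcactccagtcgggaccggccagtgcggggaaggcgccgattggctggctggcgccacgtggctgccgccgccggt
Hoxd10, chr2:74691641-74691890: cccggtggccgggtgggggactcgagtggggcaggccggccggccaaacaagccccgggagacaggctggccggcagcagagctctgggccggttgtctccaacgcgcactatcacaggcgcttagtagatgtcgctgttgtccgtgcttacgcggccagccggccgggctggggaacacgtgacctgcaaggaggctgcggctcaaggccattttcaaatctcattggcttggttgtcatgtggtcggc
Hoxd11, chr2:74682073-74682322: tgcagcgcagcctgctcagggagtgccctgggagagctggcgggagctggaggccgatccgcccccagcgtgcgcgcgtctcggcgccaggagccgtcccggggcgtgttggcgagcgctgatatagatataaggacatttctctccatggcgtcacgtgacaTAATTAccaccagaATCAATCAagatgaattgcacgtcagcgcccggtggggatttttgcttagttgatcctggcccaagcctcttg
The Hoxd11 window held a homeodomain core match 87 bases and a Pbx-Hox match 73 bases before the start. The window of another Hoxd11 start, not shown, held a homeodomain core match 81 bases before it and no Pbx-Hox match. The other 2 windows held none of these letters. Their G+C content was 71.6% for Hoxd1, 65.6% for Hoxd10 and 60.4% for Hoxd11.

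The clusters also hold genes of 2 microRNA families, miR-10 and miR-196, which are known to target Hox transcripts. Their mature sequences are shown, with the seed (bases 2 to 8) in capitals, because members of a family share it.
miR-10a-5p: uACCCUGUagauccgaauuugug
miR-10b-5p: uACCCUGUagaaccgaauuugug
miR-196a-5p: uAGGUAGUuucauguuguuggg
miR-196b-5p: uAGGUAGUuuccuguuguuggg
Counted from the 5′ end, miR-10a-5p differs from miR-10b-5p by A12U, and miR-196a-5p from miR-196b-5p by C12A. Poly(A) libraries do not capture the mature forms, so counts at these genes reflect longer transcripts that cover the hairpins. Mir196a-1, in the HoxB cluster, had 0.63 to 1.34 CPM. Mir10a reached at most 0.13 CPM and Mir10b 0.29 CPM, and Mir196b had 0 counts in every library. Hoxa9 shares 1.52% of its exon bases with Mir196b on the same strand. Reads there may not have been assigned to either gene, so the 0 does not show that no transcript covers the hairpin.

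The first question was which paralogue groups the ganglia expressed. Levels of different genes were compared as CPM per kilobase of annotated exon. The profile rose from group 2 to group 7, stayed high to group 9 and fell steeply beyond group 10. The summed level was 23.1 CPM per kb in group 7 (range over 8 libraries 21.9 to 25.2), 20.4 in group 9 (18.52 to 22.5), 17.8 in group 6 (16.4 to 19.6) and 17.5 in group 8 (16.3 to 19.0). Group 7 lay above groups 6 and 8 without overlap. Groups 7 and 9 overlapped in range, as did groups 6 and 8. Within libraries, group 7 was above group 9 in all but Control replicate 1 (21.86 against 21.87 CPM per kb). The order of groups 6 and 8 differed between libraries. The range of group 9 also overlapped those of groups 6 and 8, though group 9 was above group 8 in each of the 8 libraries. Group 10 followed with 15.2 CPM per kb over a much wider range of 7.76 to 27.0. Groups 1 (12.9), 5 (11.01) and 4 (9.97) came next, then groups 3 (4.21), 11 (1.90) and 2 (1.78). Groups 12 and 13 were at 0.14 and 0.03 CPM per kb. Groups 4 to 8 together made up 58.6% of the Hox level on average, and group 9 14.98%.

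The order of groups depended in part on the length used and on the members included. With the median annotated transcript, group 9 led and group 4 moved ahead of groups 5 and 1. Without the members that share exons with another gene, group 6 led. This setting took Hoxa7 out of group 7, Hoxa9 out of group 9 and every member out of groups 2 and 3. Sums of those groups were thus over fewer genes.

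**Figure D1:**
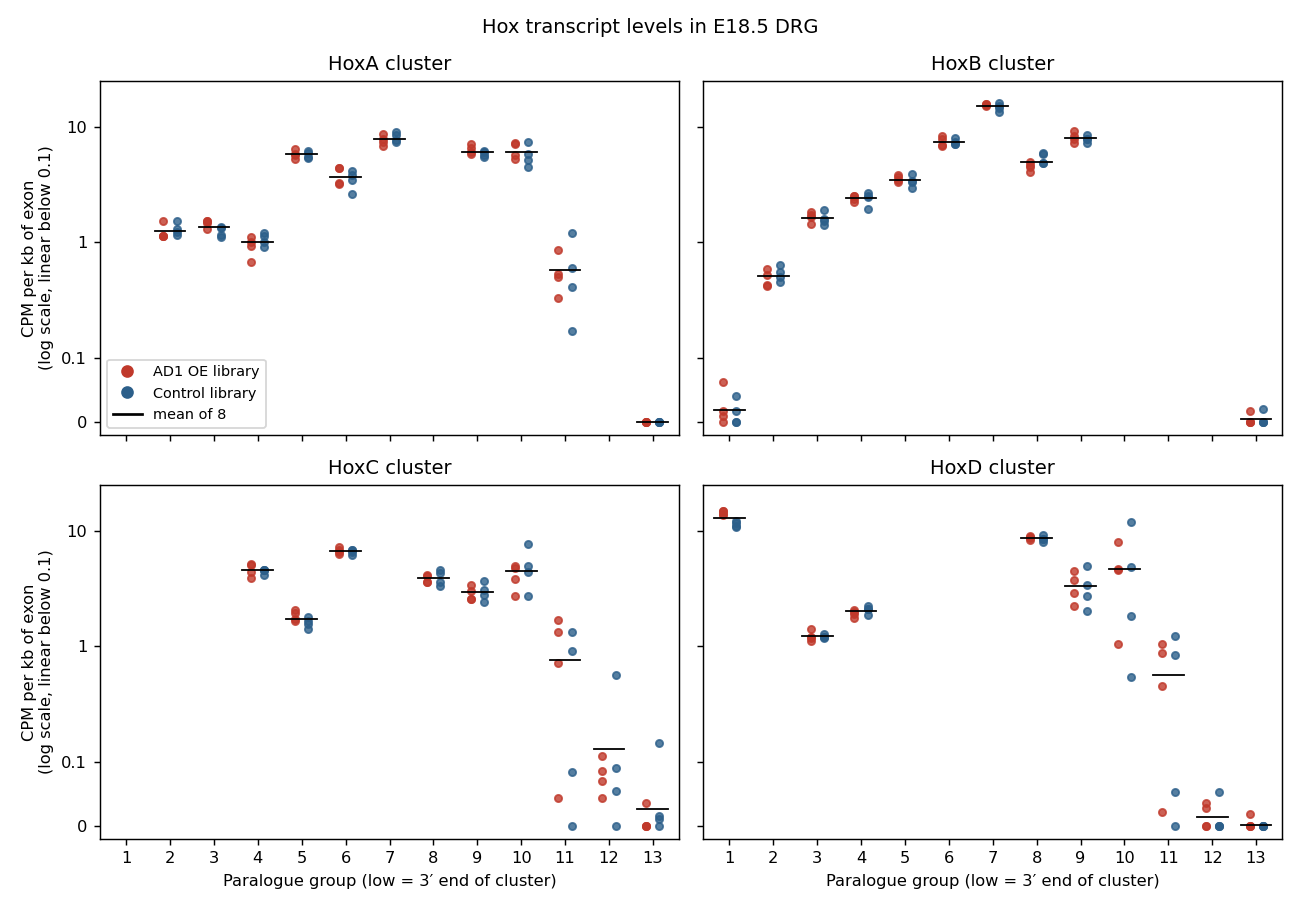
Level of each Hox gene (vertical axis, CPM per kilobase of exon, log scale that is linear below 0.1) by paralogue group (horizontal axis) in the 4 clusters, with 1 point per library (red AD1 OE, blue Control) and a line at the mean of 8 libraries. Hoxb7 and Hoxd1 are highest, the points of groups 2 to 8 lie close together, and those of groups 10 and 11 spread out.

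Hoxb7 was the most abundant member, at 15.2 ± 0.86 CPM per kb (SD over 8 libraries), and Hoxd1 the second, at 12.9 ± 1.65. Their ranges overlapped (13.3 to 16.2 and 10.8 to 14.9). Hoxd8 (8.64 ± 0.39), Hoxb9 (8.03 ± 0.67), Hoxa7 (7.92 ± 0.74) and Hoxb6 (7.47 ± 0.51) followed and overlapped one another. Within HoxB the levels rose in the order of the genes from Hoxb2 (0.51 CPM per kb) through Hoxb3 (1.64), Hoxb4 (2.41), Hoxb5 (3.504) and Hoxb6 to Hoxb7, and Hoxb8 (4.97) lay below Hoxb9.

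Hoxd1 did not follow this order. Hoxd1, at the 3′ end of HoxD, is known to be expressed in nociceptors, the neurons that sense painful stimuli. Its level was above those of its nearest Hox neighbours, Hoxd4 (2.01 ± 0.16 CPM per kb) and Hoxd3 (1.22 ± 0.09), in every library. Hoxb1, the other group 1 member analysed, had 10 counts in all 8 libraries together, so that group 1 consisted of Hoxd1. Hoxd3 and Hoxd4 share 62.3% and 52.3% of their exon bases on the same strand with other annotated genes, among them each other, and reads in shared exons may not have been assigned to either.

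The counts of the leading member of each group showed how even these members were over libraries. In group 7, Hoxb7 had 23.6, 24.2, 23.8 and 24.2 CPM in AD1 OE replicates 1 to 4 and 20.6, 22.7, 23.6 and 25.0 CPM in Control replicates 1 to 4. Hoxd8 in group 8 had 24.9, 23.1, 24.4 and 23.6 CPM in the AD1 OE libraries and 25.2, 23.4, 21.9 and 23.2 CPM in Control. For both genes the groups overlapped and no library stood apart. Hoxb6 of group 6 had 13.8, 13.5, 16.3 and 15.5 CPM in the AD1 OE libraries and 14.04, 14.05, 14.5 and 15.7 CPM in Control. Hoxa5 of group 5, known for its part in lung and cervical patterning, had 10.7, 9.89, 12.05 and 11.01 CPM in the AD1 OE libraries and 11.2, 10.2, 10.1 and 11.6 CPM in Control. Both genes varied by at most 1.22-fold over the 8 libraries.

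The leading members of groups 4, 3 and 2 varied somewhat more relative to their means. Their CVs (the coefficient of variation within groups) were 9.88% for Hoxc4, 11.5% for Hoxb3 and 13.96% for Hoxa2, against 4.65% to 7.45% for the 4 genes above. Hoxb3 and Hoxa2 also had lower counts, at which counting error is larger. Among the 500 tested genes of nearest mean level, the median CV was 7.84% for Hoxc4, 9.68% for Hoxb3 and 15.8% for Hoxa2. Hoxa2 was thus no less even than genes of like level. Other members of the lower groups were more even, with CVs of 4.36% for Hoxd1, 7.20% for Hoxd4 and 7.59% for Hoxd3. Hoxc4 of group 4 had 12.98, 9.98, 13.2 and 11.3 CPM in the AD1 OE libraries and 10.6, 11.7, 11.8 and 11.9 CPM in Control. Hoxb3, which together with the other group 3 genes patterns the hindbrain and neck, had 7.28, 6.19, 7.04 and 7.74 CPM in the AD1 OE libraries and 6.52, 5.98, 6.72 and 8.16 CPM in Control, with 52.9% of its exon bases opposite Hoxb3os on the other strand. Hoxa2, a gene of the hindbrain and branchial arches, had 2.01, 2.00, 2.03 and 2.6985 CPM in the AD1 OE libraries and 2.6999, 2.18, 2.04 and 2.32 CPM in Control. In all 3 genes the groups overlapped. Over the 21 tested members of groups 1 to 8, the ratio of the highest to the lowest library had a median of 1.35 and reached at most 1.78, in Hoxa4.

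Each CV was set beside that of the 500 tested genes of nearest mean level. The 3 smallest CVs among members with a mean of at least 1 CPM were those of Hoxd1 (4.36%, against a median of 6.05% among like genes), Hoxd8 (4.65%, 6.04%) and Hoxc6 (5.25%, 6.98%). Hoxc6 had 15.3, 15.8, 16.4 and 17.5 CPM in the AD1 OE libraries and 15.9, 16.6, 16.5 and 14.97 CPM in Control. For Hoxd3 and Hoxd4 the spread over the 8 libraries was no more than counting error gives, the ratio of chi-square to its degrees of freedom being 0.694 and 0.908 (1 being counting error alone). Of the 21 tested members of groups 1 to 8, 8 had a CV above the median of like genes. All 10 tested members of groups 9 to 11 did.

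**Figure D2:**
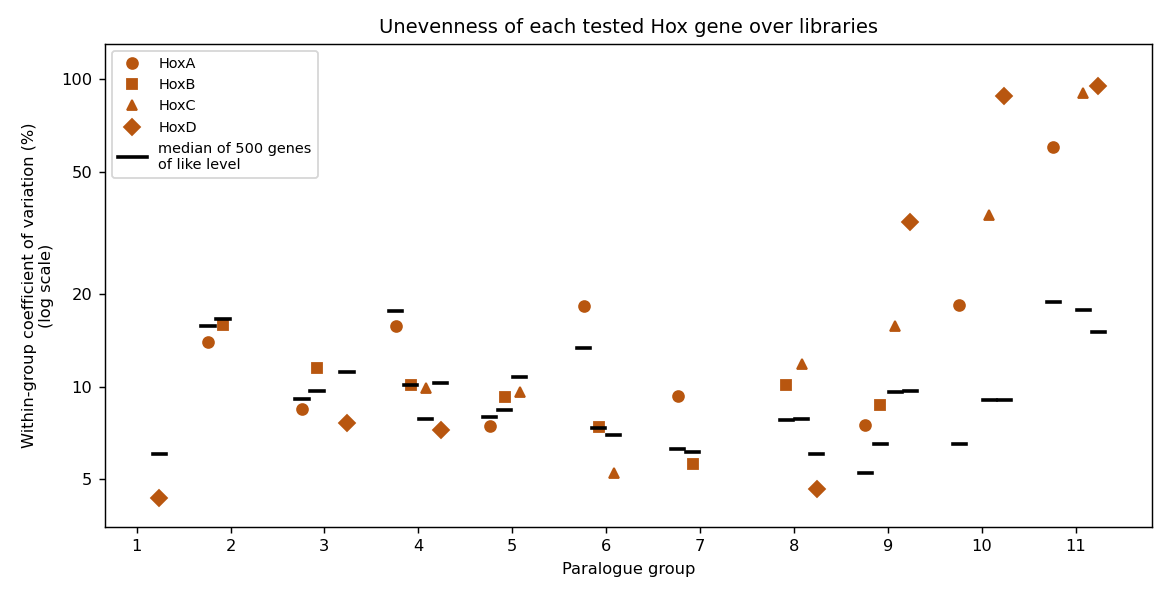
Within-group CV (vertical axis, percent, log scale) of the 31 tested Hox genes by paralogue group, with a symbol per cluster, and black bars at the median CV of the 500 genes of nearest level. Groups 1 to 8 scatter around the bars, and Hoxd9, Hoxc10, Hoxa11, Hoxd10, Hoxc11 and Hoxd11 rise to between 34.2% and 94.99%.

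The posterior genes differed widely between libraries, and each genotype held both high and low libraries. Of the tested members averaging 1 CPM or more, Hoxd11, Hoxc11 and Hoxd10 had the 3 largest CVs, at 94.99%, 89.9% and 88.1%, against medians of 15.1%, 17.8% and 9.07% among like genes. Hoxd10, a gene of lumbar motor neurons and hindlimb, had 8.52, 1.92, 14.5 and 8.28 CPM in AD1 OE replicates 1 to 4 and 21.7, 8.78, 0.983 and 3.30 CPM in Control replicates 1 to 4, from counts of 25 to 482. Control replicate 1 was 22.1 times as high as Control replicate 3, and the AD1 OE libraries lay between them.

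Hoxd11, which with its paralogues patterns the sacrum, kidney and forearm, had 3.66, 0.0891, 4.44 and 1.91 CPM in the AD1 OE libraries and 5.17, 3.52, 0 and 0.226 CPM in Control. Hoxc11 had 2.71, 0.0891, 3.40 and 1.44 CPM in the AD1 OE libraries and 2.6999, 1.84, 0 and 0.169 CPM in Control. Both genes had 2 counts in AD1 OE replicate 2 and 0 in Control replicate 3, where a count of 0 allows up to 0.118 CPM (3 counts, counting error only). The highest library was thus at least 43.9-fold above Control replicate 3 for Hoxd11 and at least 28.9-fold for Hoxc11. AD1 OE replicates 1 and 3 and Control replicates 1 and 2 were the 4 highest libraries in both genes.

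The other genes of groups 10 and 11 ordered the libraries alike. Hoxa10, the most abundant of group 10, had 23.1, 18.8, 23.9 and 17.3 CPM in the AD1 OE libraries and 24.03, 19.2, 14.7 and 16.9 CPM in Control. Hoxc10, another lumbar gene, ranged from 5.22 to 14.7 CPM (2.82-fold) and Hoxa11 from 0.393 to 2.74 CPM (6.98-fold). Of the 6 tested genes of groups 10 and 11, 5 were highest in Control replicate 1 (all but Hoxc11) and 5 lowest in Control replicate 3 (all but Hoxc10, lowest in AD1 OE replicate 4). In 5 of the 6 the same 4 libraries ranked highest, and in Hoxa11 3 of those 4 did. In group 9, Hoxd9 (4.32 to 10.6 CPM, CV 34.2%) took the same course, whereas Hoxb9 had 20.3, 23.7, 21.7 and 18.7 CPM in the AD1 OE libraries and 18.6, 20.1, 22.1 and 20.2 CPM in Control, with a CV of 8.73%. Hoxa9 (30.7 to 39.3 CPM) had a CV of 7.48%, and Hoxc9 (5.90 to 8.91 CPM) one of 15.7%.

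**Figure D3:**
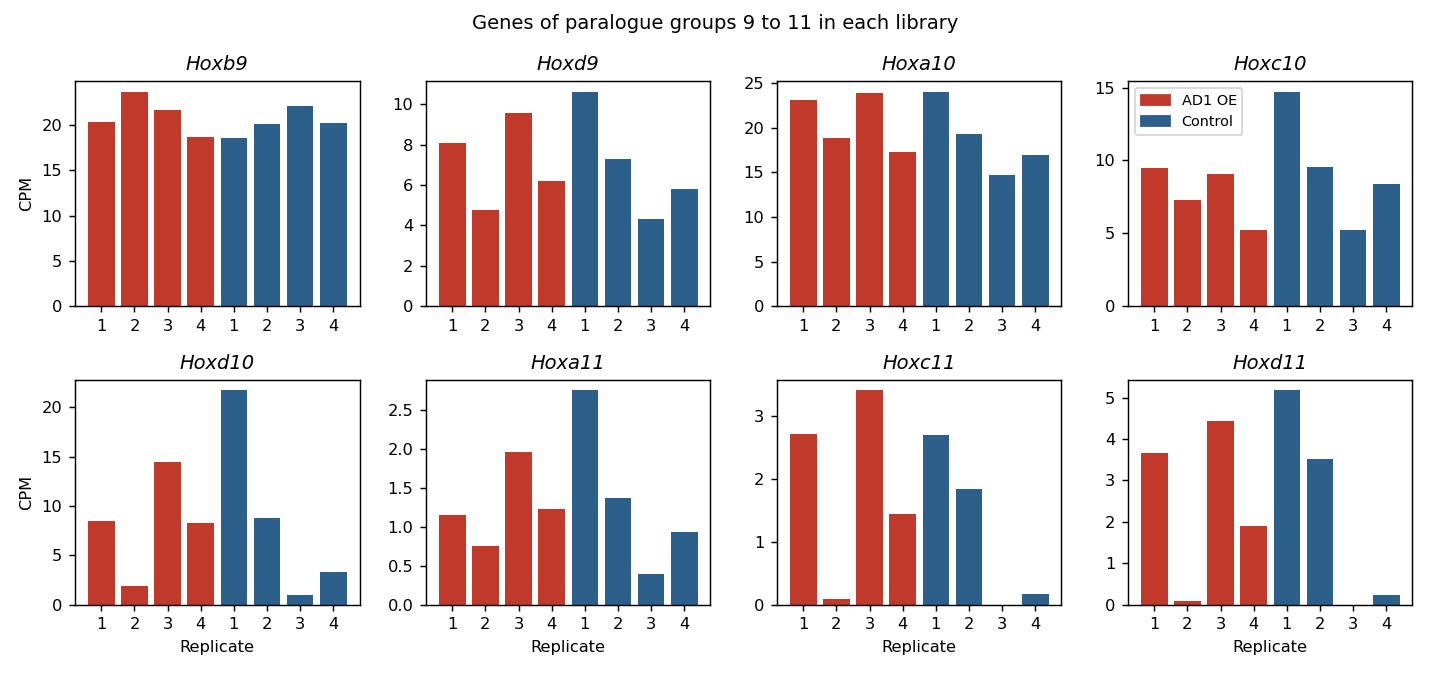
CPM (vertical axes, each from 0) of 8 genes of paralogue groups 9 to 11 in AD1 OE replicates 1 to 4 (red) and Control replicates 1 to 4 (blue), with 1 bar per library. Hoxb9 varies least of these 8 genes, while Hoxd10, Hoxc11 and Hoxd11 are high in AD1 OE replicates 1 and 3 and Control replicates 1 and 2 and near 0 in Control replicate 3.

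The 7 members that did not pass the filter were Hoxa13, Hoxb1, Hoxb13, Hoxc12, Hoxc13, Hoxd12 and Hoxd13. Hoxa13 had 0 counts in every library, Hoxd13 1 count in all and Hoxb13 2. Hoxc12, the most abundant gene of group 12, had 0.0452, 0.0891, 0.115 and 0.0720 CPM in the AD1 OE libraries and 0.585, 0.0934, 0 and 0.0565 CPM in Control. Hoxc13, the leading gene of group 13, had 0.0891 CPM in AD1 OE replicate 2, 0.360, 0.0393 and 0.0282 CPM in Control replicates 1, 3 and 4, and 0 in the other 4 libraries. More than 3 counts of Hoxc12 (13) and of Hoxc13 (8) were found in Control replicate 1 only. Hoxd12 had 9 counts in all.

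As a check of the dissected levels, the share of the Hox level from groups 10 to 13 was computed. It was 13.7%, 8.75%, 16.0% and 10.7% in AD1 OE and 21.6%, 13.7%, 6.44% and 8.97% in Control, a 3.35-fold range that lay within the Control group. The highest and the lowest share were both from Control libraries. Without Control replicate 1 the range was 6.44% to 16.0%, or 2.48-fold. The summed level of groups 1 to 8 differed by 1.11-fold over the same libraries (92.8 to 102.6 CPM per kb).

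Markers of other tissues moved with part of this pattern. Control replicate 1, with the highest share, was also the library with the most spinal cord and sympathetic marker transcripts, with Olig1 at 8.37 CPM and Dbh at 4.86 CPM against at most 3.78 and 1.34 CPM elsewhere. AD1 OE replicate 1, AD1 OE replicate 3 and Control replicate 2 lay next in share, with spinal cord sums of 22.0, 25.1 and 19.1 CPM. The libraries of lower share had 20.8 and 21.6 CPM (AD1 OE replicates 2 and 4) and 22.0 and 27.6 CPM (Control replicates 3 and 4). The summed level of 8 skeletal muscle markers was 140, 176, 492 and 100 CPM in the AD1 OE libraries and 338, 325, 179 and 121 CPM in Control. It was high in AD1 OE replicate 3, Control replicate 1 and Control replicate 2, and not in AD1 OE replicate 1. Hindlimb markers were near 0, with Tbx4 at most 0.31 CPM and Pitx1 at most 0.27 CPM. Between genotypes, 0 genes of the spinal cord, sympathetic and muscle lists were called by edgeR, DESeq2 or limma-voom, with 2 of 7, 0 of 4 and 0 of 6 tested genes at an unadjusted p under 0.05, a limit that 18.6% of all tested genes met. The median log2 fold changes of these lists were -0.75 (1 of 7 positive), -0.25 (0 of 4 positive) and 0.05 (3 of 6 positive). The part of these tissues in the Hox result was not tested. In bulk samples, fewer cells of a type and less RNA per cell cannot be told apart.

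The share from groups 9 to 13 was 27.4 ± 3.33% in AD1 OE and 27.6 ± 6.70% in Control (SD, n = 4 each). The difference of -0.22 percentage points was smaller than either SD. Without Control replicate 1 it was 2.77 points, still within the spread. The mean paralogue number weighted by level was 6.48 ± 0.19 in AD1 OE and 6.60 ± 0.30 in Control.

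The second question was whether Hox transcripts differed between AD1 OE and Control. Hoxd1, the group 1 gene described above, rose and was the 1 member called. It had 26.2, 27.5, 25.7 and 27.8 CPM in the AD1 OE libraries and 20.2, 22.6, 20.7 and 21.9 CPM in Control. Every AD1 OE library lay above every Control library. The means were 26.8 ± 1.00 and 21.3 ± 1.09 CPM, a log2 fold change of 0.33 ± 0.06 (SE) with a 95% interval from 0.20 to 0.45 and an adjusted p of 0.00364 (edgeR quasi-likelihood test, Benjamini-Hochberg over 17721 genes). Genes were called where the adjusted p was under 0.005 and the log2 fold change was beyond 0.25 in either direction. By this rule 1 of 31 tested Hox genes was called, against 2.57% of all tested genes.

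The Hoxd1 call lay close to the threshold. It was lost without any 1 of 7 libraries (all but AD1 OE replicate 3), with log2 fold changes of 0.30 to 0.35 and adjusted p of 0.00680 to 0.0144 by the same edgeR test. Sex differed between the groups. With sex as a term the log2 fold change was 0.29 and edgeR's adjusted p was 0.0170. The male libraries had 26.2, 27.5 and 27.8 CPM in the AD1 OE libraries and 21.9 CPM in Control, and the female ones 25.7 CPM in the AD1 OE libraries and 20.2, 22.6 and 20.7 CPM in Control. With the posterior Hox level as a term, a fit added after the data had been seen, Hoxd1 remained called.

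**Figure D4:**
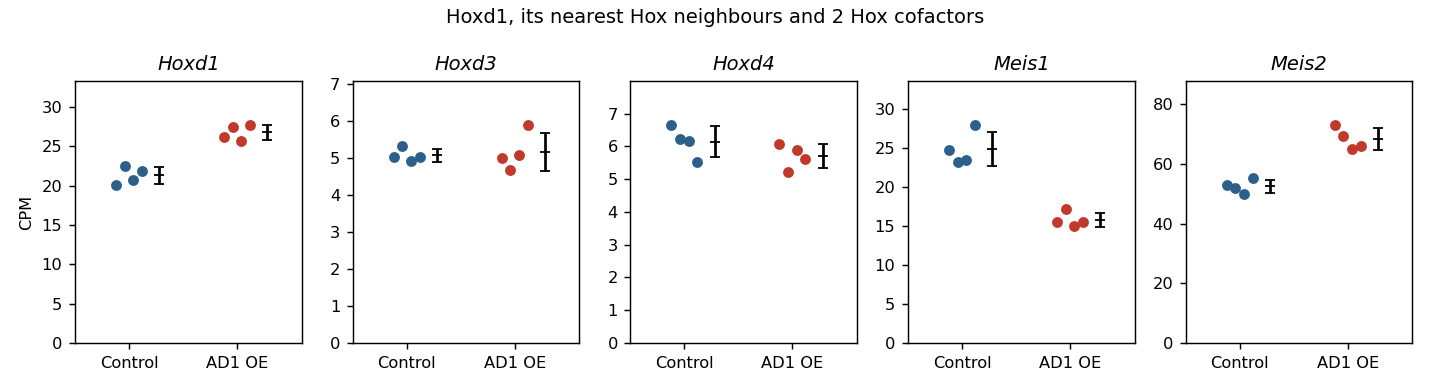
CPM (vertical axes from 0) of Hoxd1, Hoxd3, Hoxd4, Meis1 and Meis2 in Control (blue) and AD1 OE (red), with 1 point per library and bars for mean ± SD (n = 4). The groups separate in Hoxd1, Meis1 and Meis2 and overlap in Hoxd3 and Hoxd4.

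The neighbours of Hoxd1 in the cluster did not pass the test. Hoxd3 had 5.00, 4.68, 5.09 and 5.90 CPM in the AD1 OE libraries and 5.04, 5.33, 4.91 and 5.03 CPM in Control, and Hoxd4 5.21 to 6.06 CPM in the AD1 OE libraries and 5.51 to 6.66 CPM in Control. Their log2 fold changes were 0.03 (95% interval -0.18 to 0.23) and -0.10 (-0.30 to 0.10). For Hoxd8 the interval was -0.08 to 0.16. Mtx2 and Lnpk, the genes that flank HoxD, had log2 fold changes of 0.07 and -0.02 and were not called either.

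No other Hox gene had an adjusted p under 0.05, a limit that 6.55% of all tested genes met, and none had groups that did not overlap, as 13% of all tested genes did. The next smallest p-values belonged to Hoxa3, with 7.84 to 9.26 CPM in the AD1 OE libraries and 6.64 to 8.13 CPM in Control (log2 fold change 0.24, edgeR adjusted p = 0.166), and Hoxb8, with 10.7 to 13.2 CPM in the AD1 OE libraries and 12.8 to 15.6 CPM in Control (-0.24, edgeR adjusted p = 0.172). For both genes the groups overlapped. The median log2 fold change of the 31 tested Hox genes was 0.03, beside 0.0018 over all tested genes, with 20 positive and 11 negative, and 27 of 31 lay within 0.25 of 0.

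What the data could show differed along the clusters. For Hoxb7 the 95% interval of the log2 fold change ran from -0.08 to 0.19 and for Hoxc6 from -0.11 to 0.16. For the uneven posterior genes it was far wider, from -1.51 to 1.48 for Hoxd10, -1.72 to 2.25 for Hoxd11 and -1.06 to 2.66 for Hoxc11. A difference between genotypes in these 3 genes was not detectable with this spread. Hoxd10's log2 fold change was -0.02 over all libraries and 0.92 without Control replicate 1.

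**Figure D5:**
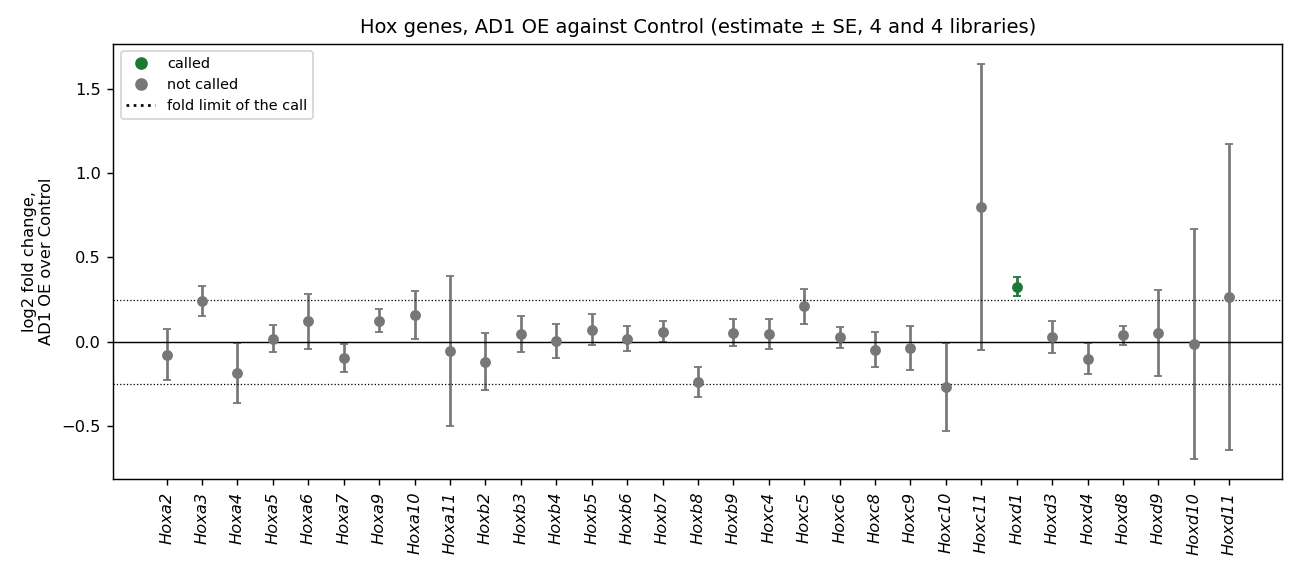
Log2 fold change of AD1 OE over Control (vertical axis) for the 31 tested Hox genes in cluster order, with bars for ± SE and dotted lines at the fold limit of 0.25. Hoxd1 (green) is the called gene, and the bars of Hoxa11, Hoxc11, Hoxd10 and Hoxd11 are the longest.

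Hox proteins bind DNA together with homeodomain proteins of the TALE class, of which Pbx and Meis are the best known. Of 9 TALE genes, 1 was called higher and 1 lower, where 2.57% of all tested genes were called. Meis1 had 15.5, 17.1, 15.03 and 15.5 CPM in the AD1 OE libraries and 24.7, 23.2, 23.4 and 27.96 CPM in Control (log2 fold change -0.66 ± 0.07, edgeR adjusted p = 0.000145). Meis2 had 73.1, 69.3, 65.1 and 65.8 CPM in the AD1 OE libraries and 52.8, 51.8, 50.03 and 55.2 CPM in Control (0.38 ± 0.05, edgeR adjusted p = 0.000471). The groups did not overlap in either gene. Pknox1 (0.12) and Pknox2 (0.14) also had groups that did not overlap and were not called. Groups did not overlap in 13% of all tested genes. The log2 fold changes of the 4 Pbx genes ran from -0.19 (Pbx4) to -0.01 (Pbx2).

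The machinery that sets and keeps Hox expression was described by lists, in which DESeq2 and limma-voom likewise called 0 genes. Of 24 genes of the Polycomb list, which holds the complexes that keep Hox genes silent and also Kdm6a and Kdm6b, demethylases that remove the Polycomb mark, and 9 trithorax genes, which keep them active, 0 were called by edgeR, with medians of 0.04 and 0.05 on the log2 scale and 2 genes in each list at an unadjusted p under 0.05, the limit met by 18.6% of all tested genes here and in the lists that follow. Jarid2, a partner of the repressive Polycomb complex, had non-overlapping groups (log2 fold change 0.16, edgeR adjusted p = 0.0346), as had Suz12 (0.09) and the trithorax gene Ash1l (0.12). That was 2 of 24 Polycomb and 1 of 9 trithorax genes. Groups did not overlap in 13% of all tested genes, the share to set beside the lists that follow too. Of the 15 tested retinoic acid genes, the signal that turns on the 3′ Hox genes, 0 were called by edgeR and 2 had an unadjusted p under 0.05. Cyp26a1 and Cyp26c1, enzymes that degrade retinoic acid, did not pass the filter. Rarb, a retinoic acid receptor, had the largest change of that list (0.26) and was the 1 of its 15 tested genes with groups that did not overlap. Of the 4 tested genes of axial patterning, 0 were called by edgeR and 2 had an unadjusted p under 0.05. Gdf11, which sets the trunk-to-tail transition, had -0.12 and Fgfr1 0.11, both with groups that did not overlap. Cdx1, Cdx2, Cdx4, Fgf8 and Wnt3a, which act in the early tail bud, were at or near 0 (at most 0.14 CPM).

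Some non-coding genes inside the clusters varied as their Hox neighbours did. Hotair, transcribed from the HoxC cluster between Hoxc11 and Hoxc12, had 1.06, 0, 1.34 and 0.36 CPM in the AD1 OE libraries and 1.35, 0.81, 0.08 and 0.06 CPM in Control, highest in the same 4 libraries as Hoxc11 and Hoxd11. Hoxa11os, antisense to Hoxa11, ranged from 0.16 to 1.17 CPM with its lowest value in Control replicate 3 and its highest in Control replicate 1, as Hoxa11 did, and since the strand setting of the counting is not stated, reads of the pair cannot be told apart over the 34.98% of Hoxa11 exon bases that they share. Hotairm1, at the 3′ end of HoxA, was even at 0.79 to 1.25 CPM. Hottip, beyond Hoxa13, had 0 counts in every library. Evx1, which lies beyond the 5′ end of HoxA, was found in Control replicate 1 only (0.27 CPM). Of the 17 tested non-coding and flanking genes, 0 were called by edgeR, DESeq2 or limma-voom. An unadjusted p under 0.05 was found for 2 of them, against 18.6% of all tested genes.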

How the data were processed

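The labels and the study's methods state that DRG were dissected from E18.5 embryos and that stranded poly(A) libraries were sequenced on a NovaSeq instrument. The submitters' notes name bcl2fastq 2.20.0.422, STAR 2.7.8a, featureCounts 2.0.1 and GRCm39. The authors deposited raw counts per Ensembl gene, 1 file per library, neither filtered nor normalized. The strand setting of the counting is not given in the sources used here, and the limit given for a count of 0 covers counting error only, whereas intervals of fold changes include the spread between libraries.

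Groups and replicate numbers came from the sample titles and genotypes. The study gives its n as embryos, 4 in each group. All replicate pairs differed by more than counting noise (chi-square per degree of freedom of 4.02 or more). GENCODE M21 (GRCm38) gave symbols for 52133 of 55414 IDs, exon lengths and shared exons, with no gene coordinates taken from it. Promoters and miRNAs are RefSeq's on GRCm38.p6.

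The filterByExpr rule and TMM scaling of edgeR 4.0.16 (R 4.3.3) were used, followed by its quasi-likelihood test of genotype, with no other term. DESeq2 1.42.0 (the study's tool) and limma-voom 3.58.1 were alternatives. CPM used TMM-scaled library sizes of the tested genes. The code was tested on simulated counts. The members and lists were chosen with earlier results of these data known. Values of every library are given for called members, the most abundant member of each paralogue group, and the 3 largest and 3 smallest CVs, and for a few other members chosen after their values were seen (Hoxd3 and the ranges of Hoxd4, Hoxd9, Hoxa9, Hoxc9, Hoxc10, Hoxa11, Hoxa3 and Hoxb8). Listed genes are named where called, non-overlapping and among the 3 largest of their list, or near 0, and others in the text (Suz12, Pknox and Pbx genes, Mtx2, Lnpk, the non-coding genes, Olig1, Dbh) were chosen after their values were seen. Of 209 listed genes, 207 had an ID.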

Additional observations from a re-analysis of the deposited data

Results flagged for a closer look

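Members with a mean of at least 1 CPM were checked for a library far from the other 3 of its group, by the gap to the nearest library over the range of the group. Of 62 groups of 4, 2 exceeded Dixon's 95% critical value, and chance flags about 5% of groups. Hoxa2 was high in AD1 OE replicate 4, at 2.6985 CPM (gap over range 0.968). Hoxc4 was low in Control replicate 1, at 10.6 CPM (0.879).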

How the results depend on the processing

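By edgeR or the other tools, 1 Hox gene, Hoxd1, was called under RLE, upper-quartile or no composition scaling, both other filters, DESeq2, limma-voom and an adjusted p under 0.05. It was 0 with a log2 fold change over 1 required, with sex as a term and with the replicate block. Leaving out each replicate gave 0 to 1. The Hoxd1 log2 fold change stayed positive in all 20 alternatives (0.29 to 0.35). Same-numbered samples did not deviate together for replicates 1 to 3 (correlations -0.0099, -0.0541 and -0.035). The replicate 4 libraries did in part (0.313), and what they shared was not tested. The replicate number was not used as a pairing in the main test. With the replicate block the Hoxd1 log2 fold change was 0.33 (edgeR adjusted p = 0.00813), and calls over all genes went from 455 to 348. The Hoxd10 log2 fold change, near 0 in the report, turned positive without composition scaling (0.0031), with limma-voom (0.56), with the replicate block (0.17), with sex as a term (0.69), with the posterior Hox level as a term (0.21), and without AD1 OE replicate 2 (0.29), Control replicate 1 (0.92) or Control replicate 2 (0.00016). Over all replicates left out it ran from -0.38 to 0.92. The cause was not tested. The median Hox log2 fold change ranged from 0.0045 to 0.06 over 18 alternatives. The difference in the share of groups 9 to 13 ranged from -2.26 to 2.77 points without each replicate. The highest paralogue group was 7, but 9 with the median transcript and 6 without members that share exons. The number of tested Hox genes more uneven than like genes was 18, and 17 to 23 without each replicate (added after the data had been seen). Calls over all genes were 659 with DESeq2, 747 without a filter and 129 with a log2 fold change over 1. They were 289 without AD1 OE replicate 1. Depth limits the genes of groups 12 and 13, most of which lay under 3 counts per library.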

Other observations

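Control replicate 1 also stood apart from the other Control libraries in Acan, a cartilage matrix gene chosen after its values were seen. It had 4.23 CPM there and 57.8, 40.6 and 35.7 CPM in Control replicates 2 to 4, and 4.32 to 10.1 CPM in AD1 OE.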
